A study of Mus musculus with 12 samples.

Results

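Mouse prostate cells that the series' text calls luminal were compared with and without surface LY6D at high SCA1: 2 libraries of LY6D+SCA1high cells against 2 of LY6D-SCA1high cells, chosen by the cell population label, of 12 libraries in all. The mice were wild type, of strain C57BL/6 and 6 to 8 weeks old, and no treatment is named. Cells carrying CD31 (endothelium), CD45 (leukocytes) or Ter119 (red cells) were removed by sorting, and the rest were sorted by LY6D and by 3 levels of SCA1, called high, Int and low in the labels. RNA was read as QuantSeq 3′ tags, so a count is a tally of transcript 3′ ends and depends little on transcript length. The labels call the replicates biological and do not say whether each came from 1 animal or a pool.

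LY6D and SCA1 (the product of Ly6a) belong to the Ly6 family of small surface proteins held by a lipid anchor. In the prostate, secretory luminal cells make the proteins of the prostatic fluid under androgen control, while basal cells lie on the basement membrane and carry keratins of stratified epithelia. Luminal cells of the proximal ducts are known for high SCA1 and for traits shared with basal cells.

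The 4 libraries held between 8436185 and 20022077 counts, and 15270 of 48795 genes were tested. LY6D+ replicate 2 had the fewest counts and 7512 genes with at least 10 counts, against 10141 to 12202 in the other 3. Replicates agreed loosely, with a correlation of log values of 0.658 in LY6D+ and 0.707 in LY6D- cells. Of the 5192 genes at 20 CPM (counts scaled to a common library total) or more in LY6D+ replicate 1, 351 had no count in replicate 2. In 3 of the 4, a library of another population was closer than the partner: LY6D+SCA1Int replicate 1 for LY6D+ replicate 1 (0.731), LY6D+SCA1Int replicate 2 for LY6D+ replicate 2 (0.693) and LY6D-SCA1low replicate 2 for LY6D- replicate 1 (0.729). Counts were also compared over genes high in 1 library and low elsewhere. For such genes of LY6D- replicate 1, LY6D-SCA1low replicate 2 held a median of 13.9% of the counts. LY6D- replicate 2 held medians of 0.617% to 8.52% for the libraries of other populations, LY6D+ replicate 1 medians of 0.133% to 17.5%, the highest for LY6D-SCA1Int replicate 2, LY6D- replicate 1 at most 0.619% and LY6D+ replicate 2 at most 0.115%. Whether these are counts shared between libraries or RNA of like cells was not tested. An alternative that subtracts counts in proportion to those of the other libraries is called the subtraction here. CPM is scaled by TMM (trimmed mean of M values), and a gene is called where the p of edgeR's quasi-likelihood F test, adjusted over all tested genes by Benjamini and Hochberg's method, is below 0.05. Values are given for LY6D+ replicates 1 and 2 against LY6D- replicates 1 and 2, unless another population is named. A log2 fold change is LY6D+ over LY6D- and is followed by its standard error.

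The sorted proteins were checked at the RNA level, where a difference in Ly6d follows from the sort and is no finding. Ly6d (chr15:74762056-74763620, GRCm38) stood at 209 and 397 CPM against 0.94 and 3.85 CPM. The RNA ran the same way as the gate in all 4 libraries. Ly6a stood at 181 and 245 CPM against 593 and 477 CPM, a log2 fold change of -1.33 ± 0.71 that was not called (edgeR adjusted p = 0.443). Both groups were sorted as SCA1high, and their Ly6a values did not overlap. Among luminal markers, Krt8 lay at 131 and 120 against 72.9 and 101 CPM, and Krt18 at 145 and 161 against 108 and 108 CPM. Cd24a lay at 69.1 and 103 against 73.5 and 166 CPM. Genes listed for simple keratins and luminal identity summed to 3344 and 4096 against 1827 and 1389 CPM. In the libraries of the other populations that sum ranged from 2533 to 4438 CPM. By these 3′ tags, Krt5 and Krt14 were above Krt8 in the LY6D+ libraries. The endothelial gene Flt1, at 749 and 925 CPM, was above Krt8 in the LY6D- libraries. The fibroblast marker Dcn, at 641 and 857 against 286 and 248 CPM, was above Krt8 in all 4 libraries. Of the other fibroblast markers, Col1a2 lay at 56 and 170 against 125 and 87 CPM. Col1a1 was below Krt8 in all 4 libraries, and Pdgfra was at most 3.1 CPM. The RNA thus goes against a purely luminal label, and the populations are named here by their sort.

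In all, 40 genes were called (0.262% of those tested), 21 higher in LY6D+ cells (0.138%) and 19 lower (0.124%). Basal keratins, the chemokine scavenger Ackr4 and the metallothionein Mt2 were among the higher genes. The lower genes included the NF-kB inhibitor Nfkbia, the secretory genes Spink1 and Pbsn, and a group known from blood vessels. The groups did not overlap in any of the 40, which selection by the test favours. Over all tested genes, 15.3% were higher and 21.6% lower without overlap. Without a threshold on the adjusted p, 1790 genes (11.7%) had an unadjusted p below 0.05, of which 576 were higher and 1214 lower.

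**Figure D1:**
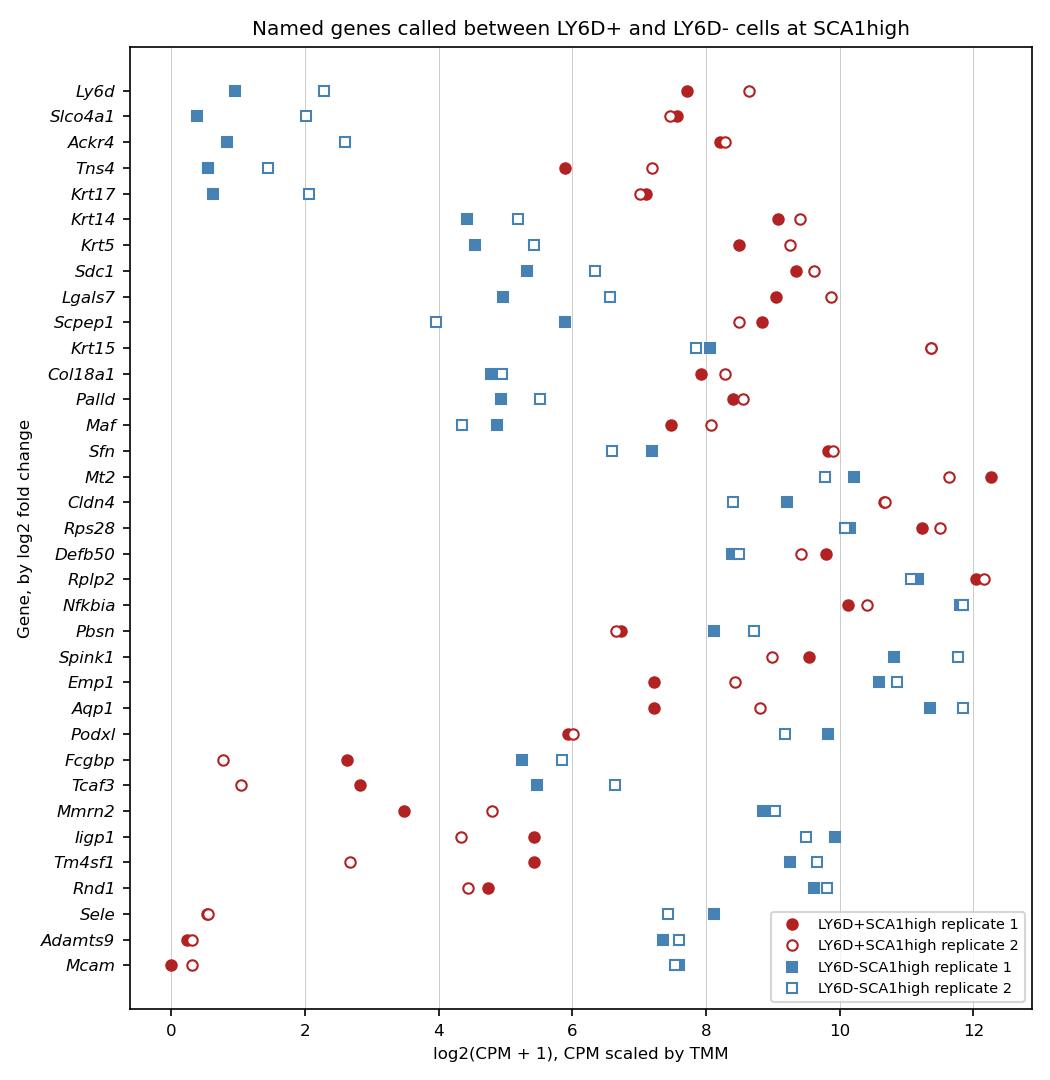
Level of each named called gene in the 4 SCA1high libraries, as log2(CPM + 1) on the horizontal axis; red circles are LY6D+ and blue squares LY6D- libraries, filled for replicate 1 and open for replicate 2. The genes run from the highest to the lowest log2 fold change. In every row the red and blue points are apart, which the choice of called genes favours.

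Keratins of basal cells rose in LY6D+ cells. Krt14 (chr11:100203162-100207548), which pairs with Krt5 in the filament network of basal cells, stood at 539 and 679 CPM against 20.5 and 35.6 CPM. Its log2 fold change was 4.44 ± 0.63 (edgeR adjusted p = 0.000344). Krt5 (chr15:101707070-101712898) was at 359 and 608 CPM against 22.4 and 41.9 CPM, a log2 fold change of 3.91 ± 0.68 (edgeR adjusted p = 0.00505). Both keratins were present in LY6D- cells at 262 to 990 counts a library, and the lowest LY6D+ value was several times the highest LY6D- value.

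Krt15 (chr11:100131758-100135928), a basal keratin of stratified epithelia, was the most abundant of them at 2626 and 2644 CPM against 266 and 230 CPM. The replicates lay close together within each group, and the log2 fold change was 3.41 ± 0.46 (edgeR adjusted p = 0.000194). Krt17 (chr11:100256217-100261029), a keratin of basal and injured epithelium, stood at 136 and 129 CPM against 0.547 and 3.18 CPM. Its log2 fold change of 6.13 ± 1.37 passed narrowly (edgeR adjusted p = 0.0459) and was lost under 8 of 15 alternatives, among them the leaving out of each of the 4 libraries in turn.

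Of the 25 genes listed for basal epithelium, all were tested, 4 rose (the keratins above) and none fell. Their median log2 fold change was 2.83 against -0.11 over all genes, and the groups did not overlap in 16 higher and 3 lower members, where 15.3% and 21.6% of all genes did so. Trp63, the transcription factor that defines basal cells, lay at 62.2 and 54 CPM against 0.0782 and 12.2 CPM and was not called (log2 fold change 3.24 ± 1.54, edgeR adjusted p = 0.419). Lamb3, a laminin chain of hemidesmosomes, lay at 42.4 and 22.3 CPM against 0.156 and 2.63 CPM, also short of the threshold (edgeR adjusted p = 0.421). The integrin Itga6 overlapped between the groups, at 319 and 209 against 283 and 158 CPM. Sparc and Cav1, which stroma and endothelium also express, had negative values of -1.39 ± 0.51 and -3.13 ± 1.04, neither called. Under the subtraction, 1 of the 25 was called.

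Single genes of stratified and barrier epithelium rose as well. Sfn (chr4:133600556-133602168), which encodes stratifin, a 14-3-3 protein of stratified epithelium, stood at 904 and 958 CPM against 145 and 95.4 CPM (log2 fold change 2.96 ± 0.42, edgeR adjusted p = 0.000344). It was the called member among 17 tested genes for stratified and cornified epithelium, whose median was 2.29. Lgals7, a galectin of stratified epithelia, was at 529 and 935 CPM against 30.2 and 93.7 CPM. Cldn4, a tight junction claudin, was at 1611 and 1635 CPM against 589 and 336 CPM, and was the 1 called member of 17 tested for simple keratins and luminal identity. As in every called gene, the groups did not overlap in these 3.

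The remaining higher genes belong to several kinds. Sdc1, a heparan sulfate proteoglycan of epithelial surfaces, stood at 648 and 785 CPM against 38.9 and 79.9 CPM (3.59 ± 0.71 on the log2 scale, edgeR adjusted p = 0.0134). Palld, an actin-bundling protein, was at 339 and 376 CPM against 29.5 and 44.9 CPM. Col18a1, a collagen of basement membranes, was at 241 and 311 CPM against 26.4 and 30 CPM and lost its call under 6 of 15 alternatives. Tns4, a tensin of focal adhesions, was at 58 and 145 CPM against 0.469 and 1.74 CPM and lost its call under 8 of 15 alternatives. The others were Slco4a1, an organic anion transporter, Scpep1, a carboxypeptidase, and Maf, a leucine zipper transcription factor. Their log2 fold changes were 6.73, 3.48 and 3.23, and their calls were lost under 2, 3 and 5 of 15 alternatives.

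Ackr4 (chr9:104084157-104126933), an atypical receptor that takes up chemokines without activating G proteins, stood at 296 and 312 CPM against 0.782 and 5.08 CPM. In counts these were 6580 and 2649 against 10 and 120. The log2 fold change was 6.67 ± 0.87 (edgeR adjusted p = 0.000121), and the call held in all 15 alternatives. Ackr4 overlaps Acad11 on the opposite strand, and the strand setting of the counting is not given in the sources used here. Among 17 tested chemokine receptors and ligands Ackr4 was the 1 called gene, and the median of the list was -1.34. Ackr1, a chemokine receptor of venules, ran the other way at 7.64 and 0.47 CPM against 148 and 198 CPM, and was not called (edgeR adjusted p = 0.405).

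**Figure D2:**
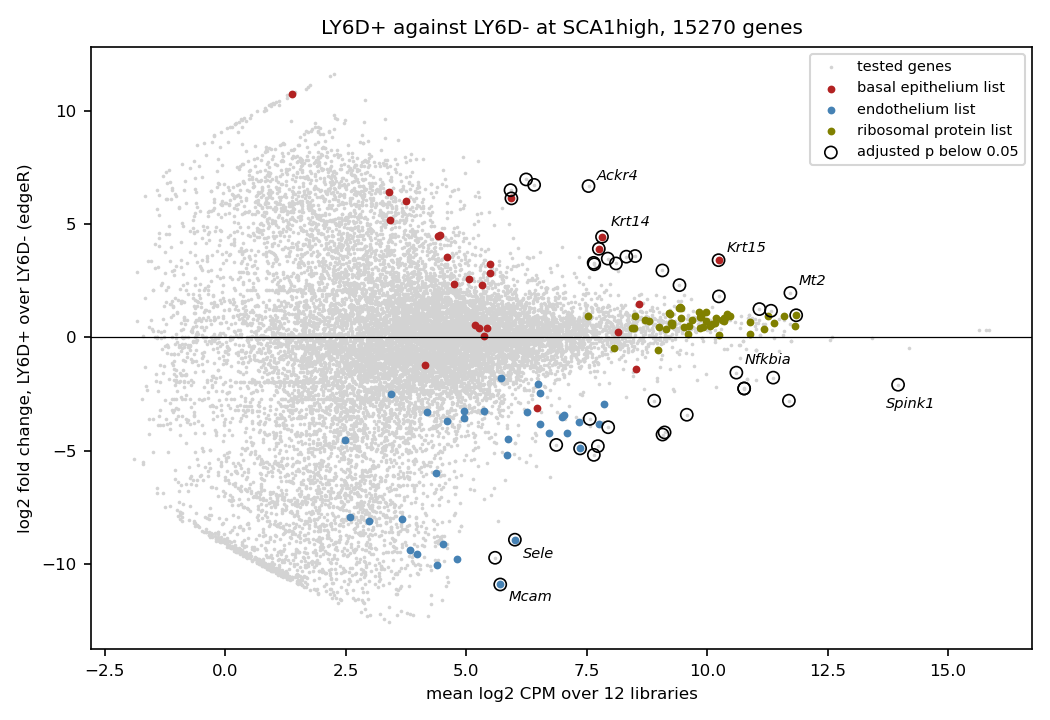
Log2 fold change of LY6D+ over LY6D- cells (vertical) against mean log2 CPM over 12 libraries (horizontal) for the 15270 tested genes, with basal, endothelial and ribosomal protein lists coloured and called genes ringed. Basal keratins lie above 0, all 33 endothelial genes lie below 0, and 48 of 50 ribosomal protein genes lie slightly above it; fitted values of genes with no counts in a group depend on the prior count.

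Mt2 was higher in LY6D+ cells, and its level set the LY6D-SCA1high population apart from the other 5. Metallothioneins are small cysteine-rich proteins that bind zinc and copper, and cells switch their genes on through metal response elements when free zinc rises. The 250 bases before the start of Mt2, of its neighbour Mt1 and of Nfkbia are shown because these genes are regulated through short, well known elements. Capitals mark the metal response core (TGCACNC or TGCGCNC, on either strand) in Mt2 and Mt1 and the kappaB consensus, the binding element of NF-kB, on either strand in Nfkbia. The sequences are from RefSeq (GRCm38.p6), and 3 of 3 genes matched by symbol.
Mt2 (chr8:94172368-94172617, plus strand): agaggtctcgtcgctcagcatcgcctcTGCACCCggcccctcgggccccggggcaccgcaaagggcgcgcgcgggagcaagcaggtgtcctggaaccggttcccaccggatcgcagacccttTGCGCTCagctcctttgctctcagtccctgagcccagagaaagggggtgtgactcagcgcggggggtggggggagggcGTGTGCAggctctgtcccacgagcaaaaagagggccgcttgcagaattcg
Mt1 (chr8:94178839-94179088, plus strand): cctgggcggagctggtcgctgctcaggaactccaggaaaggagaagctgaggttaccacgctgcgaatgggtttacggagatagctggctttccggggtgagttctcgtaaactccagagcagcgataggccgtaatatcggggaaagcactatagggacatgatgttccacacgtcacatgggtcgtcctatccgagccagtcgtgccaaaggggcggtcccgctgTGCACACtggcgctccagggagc
Nfkbia (chr12:55492648-55492897, minus strand): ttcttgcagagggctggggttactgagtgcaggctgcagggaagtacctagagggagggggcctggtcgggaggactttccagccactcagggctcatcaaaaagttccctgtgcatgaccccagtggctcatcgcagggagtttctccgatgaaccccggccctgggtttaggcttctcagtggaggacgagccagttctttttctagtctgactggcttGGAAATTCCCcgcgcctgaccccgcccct

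The Mt2 window held 3 metal response cores, starting at -223, -128 and -50 from the RefSeq start, and Mt1 held 1 at -23. Of 32817 promoter windows of this length, 21.4% held at least 1 core and 1.26% held at least 3, a number chosen from the count in Mt2. The Nfkbia window held 1 kappaB match at -29, a pattern present in 3.9% of windows. A match is a description of the letters, not a site. The counts cover 1 RefSeq start per gene, the first listed. Cores on either side of that window were not counted, so the numbers do not compare the whole promoters of Mt2 and Mt1.

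Mt2 (chr8:94172664-94173568) stood at 4913 and 3165 CPM against 1190 and 878 CPM. The log2 fold change was 1.97 ± 0.25 (edgeR adjusted p = 8.39e-05), and the call held in all 15 alternatives. Gm45774, an antisense transcript annotated over Mt2, was called too, at 1099 and 762 against 233 and 143 CPM; without a stated strand setting its reads and those of Mt2 cannot be told apart. Mt1 lay at 441 and 690 CPM against 156 and 151 CPM, with a log2 fold change of 1.88 ± 0.45 that missed the threshold (edgeR adjusted p = 0.0875) but passed it under 4 of 15 alternatives, among them without LY6D+ replicate 1 and without LY6D-SCA1low replicate 2. Of 22 tested metallothioneins and zinc transporters, Mt2 was the 1 called, and the list's median was -0.85. The zinc exporter Slc30a4 lay at 0.18 and 0.118 CPM against 26.2 and 28 CPM and was not called (edgeR adjusted p = 0.411).

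Secretory genes of the prostate moved in both directions. Spink1 (chr18:43728082-43737557), a secreted inhibitor of serine proteases, was at 742 and 507 CPM against 1792 and 3504 CPM, and fell by 2.08 on the log2 scale (standard error 0.32, edgeR adjusted p = 0.000711). Pbsn, which encodes the androgen-controlled protein probasin, was at 105 and 99.5 CPM against 276 and 421 CPM (-1.77 ± 0.28, edgeR adjusted p = 0.00122). Defb50 (chr8:21823539-21831296), a beta-defensin, rose instead, at 888 and 683 CPM against 333 and 361 CPM (1.18 ± 0.25, edgeR adjusted p = 0.0226), a call lost under 5 of 15 alternatives. Of 21 tested secretory genes these 3 were called, and the median was -1.61. Summed over the list, LY6D+ libraries held 2132 and 1503 CPM and LY6D- libraries 3172 and 5395 CPM, against 2135 to 108800 CPM in the other 8. Pbsn and Spink1 are far more abundant in SCA1low cells, and LY6D- replicate 2 held a median of 8.52% of the counts of genes high in LY6D-SCA1low replicate 1. DESeq2 and limma called neither gene. Under the subtraction neither was called, no member of the list was called lower, and the median was -0.91. Leaving out 1 library of the 4 gave 5 to 7 called lower, and without LY6D-SCA1low replicate 2 there were 6. Tcaf3, of the channel-associated TCAF family, was at 6.07 and 1.06 CPM against 43.5 and 98.3 CPM and fell (-4.28 ± 0.64). Fcgbp, a mucus protein, was at 5.17 and 0.706 CPM against 36.8 and 56.8 CPM and fell as well (-3.96 ± 0.71). Tcaf3 and Fcgbp each lost the call under 3 of 15 alternatives. The subtraction was among these for Tcaf3 but not for Fcgbp.

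Nfkbia (chr12:55489410-55492647) encodes the inhibitor that holds NF-kB in the cytoplasm and is itself switched on by NF-kB. It stood at 1117 and 1359 CPM against 3572 and 3679 CPM, a log2 fold change of -1.55 ± 0.28 (edgeR adjusted p = 0.00552). The call was lost in DESeq2 alone among the 15 alternatives. Of 18 tested NF-kB feedback genes and targets it was the 1 called. The chemokine Cxcl1 lay at 43.9 and 46.7 CPM against 277 and 205 CPM, and the adhesion molecule Vcam1 at 33.9 and 1.76 CPM against 219 and 548 CPM; neither was called (edgeR adjusted p = 0.405 and 0.232). Icam1 differed less, at 57.7 and 44.3 against 61.4 and 61.5 CPM.

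Interferon response and MHC class I genes lay lower in LY6D+ libraries, with 1 of 36 tested members called. That member, Iigp1, an interferon-inducible GTPase of cell defence, stood at 41.9 and 19.3 CPM against 972 and 723 CPM (-4.79 ± 0.73, edgeR adjusted p = 0.000757). The median of the list was -2.87, and 32 of 36 members had no overlap and were lower, where 21.6% of all genes were. The light chain of MHC class I, B2m, lay at 339 and 356 CPM against 871 and 935 CPM without a call (edgeR adjusted p = 0.207). Irf1, a transcription factor induced by interferon, lay at 162 and 337 CPM against 1154 and 1245 CPM (edgeR adjusted p = 0.0875) and was called under 8 of 15 alternatives, among them without LY6D+ replicate 2, LY6D- replicate 1 or LY6D-SCA1low replicate 2. The list summed to 2242 and 2472 CPM against 8496 and 8202 CPM. The number called lower was 6 without LY6D-SCA1low replicate 2, 2 without LY6D+ replicate 2 or LY6D- replicate 1, 10 in DESeq2 and 0 under the subtraction.

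Genes known from endothelium had the most negative median of the lists tested, although CD31+ cells had been sorted out. All 33 listed endothelial genes were tested, had negative log2 fold changes and did not overlap, with a median of -4.19; 3 of them, Mcam, Sele and Tm4sf1, fell by the test. That number was 14 without LY6D-SCA1low replicate 2, 8 without LY6D+ replicate 2, 7 without LY6D- replicate 1, 23 in DESeq2 and 1 under the subtraction, where Mcam and Tm4sf1 were not called. Summed over the list, LY6D+ libraries held 415 and 898 CPM and LY6D- libraries 7533 and 9091 CPM. The other 8 held 144 to 2802 CPM, and there too the LY6D- libraries were higher at each SCA1 level. At SCA1Int the sums were 144 and 547 CPM in LY6D+ against 2509 and 2802 CPM in LY6D- libraries. At SCA1low they were 184 and 443 against 635 and 1416 CPM. The median of the list was -3.19 at SCA1Int and -2.97 at SCA1low. Mcam, the adhesion molecule CD146, had 0 and 2 counts in LY6D+ and 6818 in all in LY6D- libraries, a ratio of 2880 (95% counting interval 797 to 23800). Sele, which encodes the cytokine-induced E-selectin, stood at 0.45 and 0.47 CPM against 279 and 172 CPM. Tm4sf1, a membrane protein of vessels, stood at 42.1 and 5.41 CPM against 609 and 805 CPM. In these bulk libraries, fewer cells of a type and less RNA per cell cannot be told apart.

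Further called genes that vessels are known to express lie outside the list. Aqp1, a water channel of endothelium, stood at 148 and 447 CPM against 2616 and 3692 CPM (-3.41 ± 0.76, edgeR adjusted p = 0.0474). Podxl, a sialomucin, was at 60.2 and 63.3 CPM against 907 and 580 CPM, and Mmrn2, an endothelial matrix protein, at 10.2 and 26.8 CPM against 462 and 523 CPM. Adamts9, a metalloprotease, had 163 and 193 CPM in LY6D- libraries and 0.18 and 0.235 CPM in LY6D+ libraries. It overlaps A730049H05Rik on the opposite strand. Aqp1, Podxl, Mmrn2 and Adamts9 lost their calls under 2, 4, 5 and 3 of 15 alternatives. The subtraction was among these for Podxl, Mmrn2 and Adamts9. Of the listed receptors, Kdr, a receptor for vascular endothelial growth factor, lay at 19.4 and 61.7 CPM against 463 and 392 CPM and was not called (-3.40 ± 0.93, edgeR adjusted p = 0.183), though 6 of 15 alternatives called it. Pecam1, which encodes the sorted CD31, was at 38.3 and 47.6 CPM against 573 and 401 CPM and was not called. Rnd1, a small GTPase, was at 25.6 and 20.7 CPM against 782 and 892 CPM and kept its call in all 15 alternatives. The endothelial sum was higher in the LY6D- libraries, as were Nfkbia and the interferon list, and its part in those results was not tested.

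**Figure D3:**
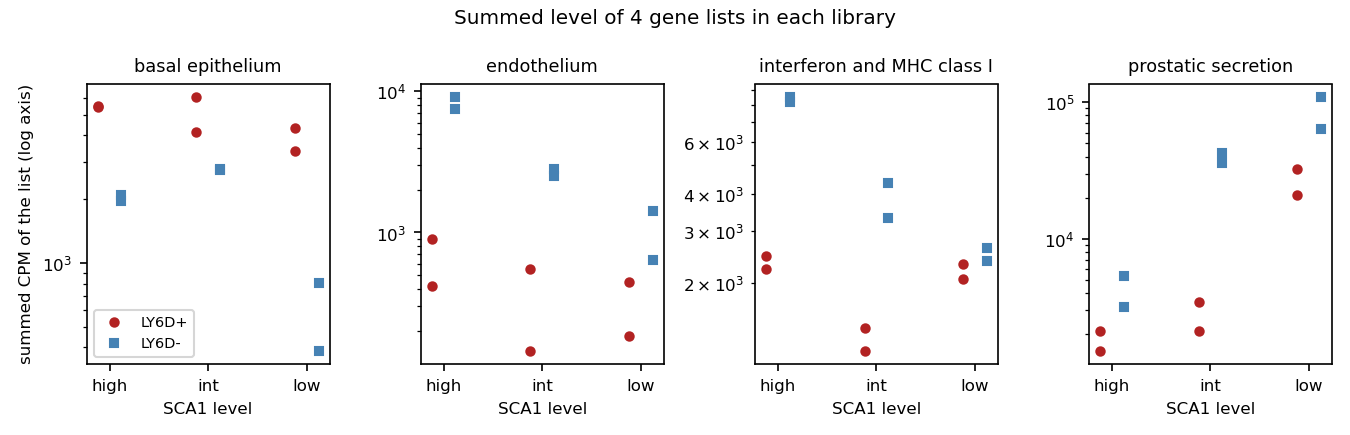
Summed CPM of 4 gene lists in each of 12 libraries, on a log axis, by SCA1 level; red circles are LY6D+ and blue squares LY6D- libraries. At SCA1high the LY6D- libraries hold 7533 and 9091 CPM of endothelial genes and the LY6D+ libraries 415 and 898 CPM, while basal genes run the other way.

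Ribosomal protein genes lay slightly higher in LY6D+ cells: 48 of 50 were positive, where 47% of all genes were, with a median of 0.74, and Rplp2, a protein of the ribosomal stalk, was called (4217 and 4559 against 2302 and 2146 CPM, 0.98 ± 0.21, edgeR adjusted p = 0.0377). Rps28 was called too, outside the list, at 2399 and 2888 against 1135 and 1085 CPM (1.25 ± 0.26), and it overlaps Kank3 on the opposite strand. Each of these calls was lost under 6 of 15 alternatives. Immediate early genes of the ERK and AP-1 list had a median of 0.79 with no gene called of 34, while 11 were higher and 2 lower at an unadjusted p below 0.05 (3.77% and 7.95% of all genes). Dusp6, which dephosphorylates ERK, lay at 917 and 1029 CPM against 158 and 413 CPM (edgeR adjusted p = 0.189), and Egr1 at 3296 and 2244 against 1594 and 1588 CPM (edgeR adjusted p = 0.198). Aldh1a1, an aldehyde dehydrogenase, lay at 627 and 469 CPM against 87.2 and 55.8 CPM (2.94 ± 0.71, edgeR adjusted p = 0.0875) and was called under 7 of 15 alternatives, among them without LY6D+ replicate 2, LY6D- replicate 1 or LY6D-SCA1low replicate 2; no gene was called of 32 for glutathione, xenobiotic and aldehyde metabolism. No gene was called either among 23 proximal luminal genes, 14 heat shock genes, 35 chaperones of the endoplasmic reticulum, 20 cell cycle genes, 22 genes of Notch, Wnt and Hedgehog signalling and 15 mitochondrial genes.

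**Figure D4:**
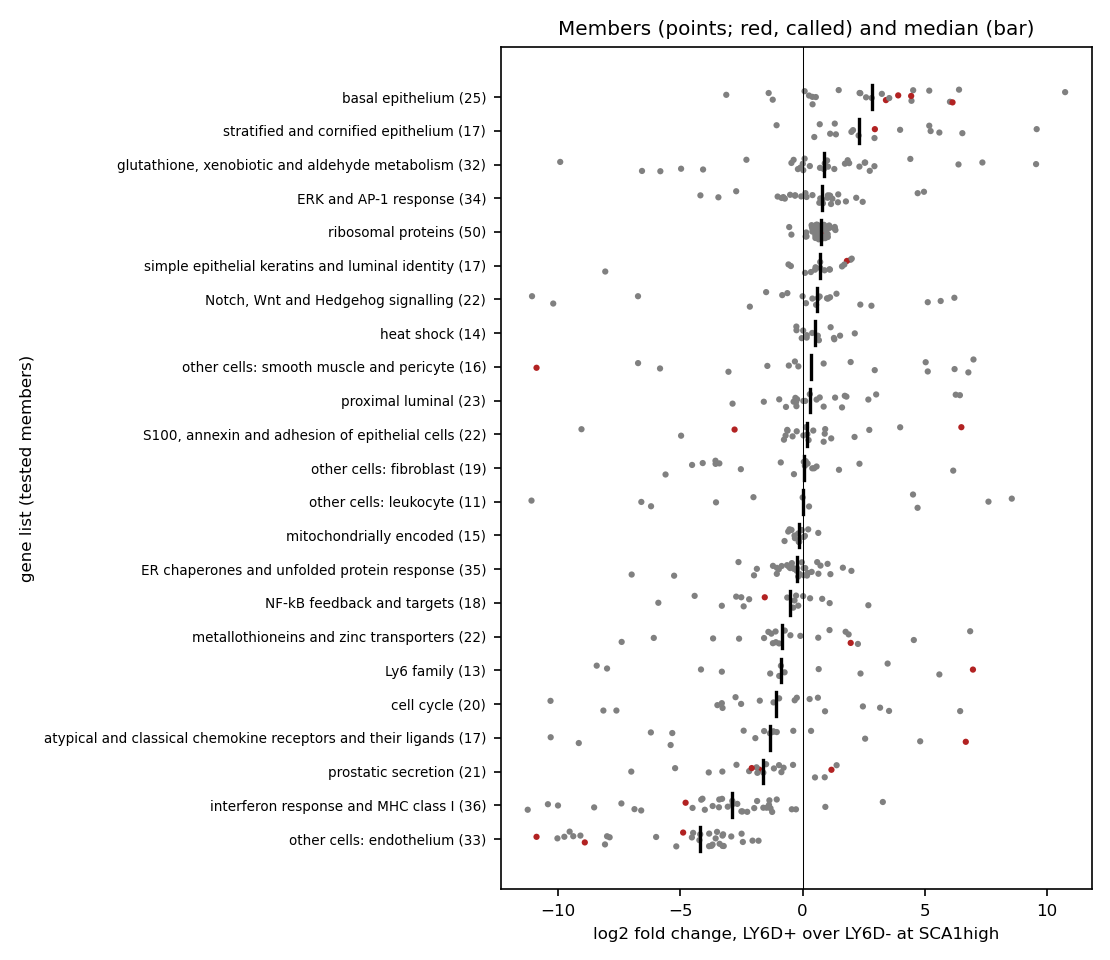
Log2 fold change of each tested member (points) and the median (bar) for lists with at least 10 tested genes; red points are called, and the number of tested members is given after each name. Medians run from 2.83 for basal epithelium to -4.19 for endothelium; fitted values of genes with no counts in a group depend on the prior count.

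Markers of further cell types were summed in the same way. Fibroblast genes summed to 2081 and 3281 CPM against 3077 and 3214 CPM, with 10 positive and 9 negative of 19. In the libraries of the other populations this fibroblast sum ranged from 642 to 1623 CPM, below all 4 SCA1high libraries. Leukocyte genes summed to 44.6 and 96.6 CPM against 52.1 and 59.1 CPM, and Ptprc (CD45) had no more than 2 counts in any of the 4 libraries. Smooth muscle and pericyte genes, among which Mcam is also listed, overlapped in sum (3329 and 2279 against 2673 and 1817 CPM). Schwann cell genes summed to 73.1 and 161 against 30.1 and 39 CPM, with a median of 3.31 over 4 tested genes, and Sox10 had no counts. Seminal vesicle genes summed to 609 and 757 against 280 and 605 CPM. Neither of these sums overlapped between the groups. Urothelial genes summed to 83 and 274 against 97.9 and 79.6 CPM, with Upk1b at 26 to 520 counts and Upk3a at none. Erythroid genes summed to 4.95 and 431 against 28.5 and 95 CPM, and neuroendocrine genes to under 1 CPM. Emp1, an epithelial membrane protein, was at 148 and 345 CPM against 1542 and 1856 CPM and fell (-2.79 ± 0.53, edgeR adjusted p = 0.00901); it was 1 of 2 called of 22 in the S100, annexin and adhesion list, with Tns4.

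The same contrast was fitted at the other SCA1 levels, with libraries outside the SCA1high contrast. All 12 libraries share the filter, the scaling and the estimate of spread, so the other levels are not an independent test of the calls. Of the 40 called genes, 36 had the same sign at SCA1Int and 11 were called there, where 31 of all 15270 tested genes were called. At SCA1low 35 had the same sign and 20 were called, where 72 of all tested genes were called. The share of all genes with the same sign is not given here. The difference between the SCA1high and SCA1Int effects was called for 4 genes (0.0262% of those tested), all more positive at SCA1high. The difference from the SCA1low effect was called for 6 genes (0.0393%), 2 more positive and 4 more negative at SCA1high.

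Mt2 differed from both other levels. It lay between 2974 and 4913 CPM in the other 10 libraries and at 1190 and 878 CPM only in LY6D-SCA1high cells. Its LY6D effect was 1.97 at SCA1high, -0.19 ± 0.24 at SCA1Int and -0.004 at SCA1low, and the differences were 2.15 ± 0.34 and 1.97 ± 0.34 (edgeR adjusted p = 0.00569 and 0.0235). Defb50 rose with LY6D at SCA1high and fell at SCA1Int, where LY6D- cells held 3752 and 4219 CPM and LY6D+ cells 865 and 712 CPM. Its effects were 1.18, -2.34 and -0.70 from high to low, and the differences 3.52 ± 0.35 and 1.88 ± 0.35 (edgeR adjusted p = 1.7e-06 and 0.0284).

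Ackr4 was at a like level in all LY6D+ libraries, from 267 to 345 CPM. Among LY6D- cells it was at 157 and 248 CPM at SCA1Int but at 0.86 and 1.21 CPM at SCA1low, so its LY6D effect was 6.67 at SCA1high, 0.56 ± 0.68 at SCA1Int and 8.19 ± 0.94 at SCA1low. The effect at SCA1high exceeded that at SCA1Int by 6.12 ± 1.04 (edgeR adjusted p = 0.0125). Spink1 was lower in LY6D+ cells at all 3 levels, by less at SCA1high than at SCA1Int (difference 2.52 ± 0.43, edgeR adjusted p = 0.0127). Krt14 effects of 4.44, 0.91 and 5.69 were not shown to differ (edgeR adjusted p = 0.282 and 0.688).

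Against SCA1low, the effects of Nfkbia, Tgm2, Ier3 and Dusp6 were more negative at SCA1high. Nfkbia had effects of -1.55 at SCA1high and 0.93 at SCA1low (difference -2.48 ± 0.39, edgeR adjusted p = 0.0131). Tgm2, a transglutaminase, and Ier3, an immediate early gene, were not called at SCA1high and rose at SCA1low, by 3.96 and 1.99 (differences -3.61 ± 0.66 and -2.31 ± 0.43, both edgeR adjusted p = 0.0284). Dusp6 had effects of 1.77 and 5.35 (difference -3.58 ± 0.69, edgeR adjusted p = 0.039). In Tgm2, Ier3 and Dusp6 the LY6D-SCA1low libraries were the lowest of all 12. Without LY6D-SCA1low replicate 2, which held a median of 13.9% of the counts of genes high in LY6D-SCA1high replicate 1, the number of genes called for this difference was 32.

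**Figure D5:**
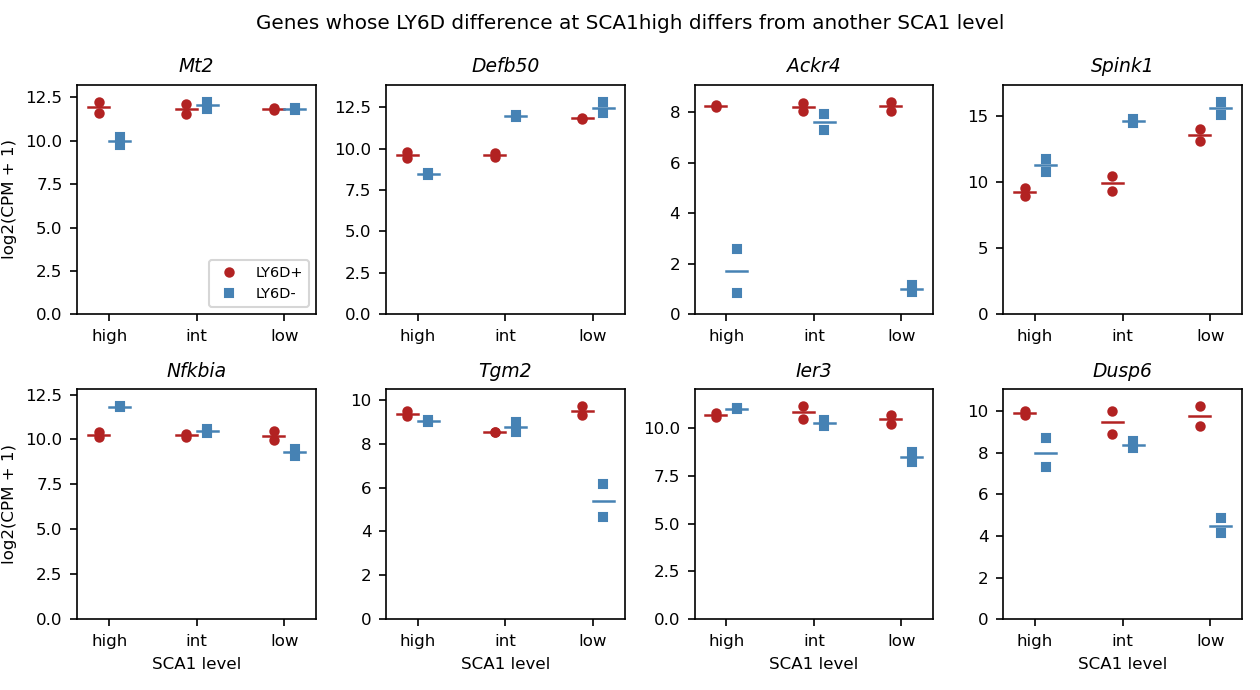
Level of the 8 genes whose LY6D effect at SCA1high differed from another SCA1 level, as log2(CPM + 1); red circles are LY6D+ and blue squares LY6D- libraries, with bars at the mean of 2. Mt2 is low only in LY6D- cells at SCA1high, and Ackr4 is near 0 in LY6D- cells at SCA1high and SCA1low but not at SCA1Int.

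Precision depended on level. Among 8690 genes at a mean log2 CPM of 4 or less the median standard error was 2.99 and none was called, while among 111 genes above 10 it was 0.285 and 12 were called (10.8%). A difference in a low gene was therefore not detectable in these libraries unless it was very large. The counting intervals cover counting error only.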

How the data were processed

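RNA from 12 sorted prostate libraries was read as 3′ tags from 10 to 20 ng of total RNA, per the labels' protocols. The authors deposited raw counts per gene and a normalised signal per gene. The submitters' processing notes name the build mm10 and the tools STAR 2.5.1, cutadapt 1.9.1, featureCounts of Subread, Picard 1.96, SAMtools 1.3.1 and edgeR. For the strand setting and the annotation, the sources used here give nothing. The deposited signal equals CPM (counts scaled to a common library total) with edgeR's TMM factors. Coordinates are from GENCODE M21 (GRCm38), and 48349 of 48795 identifiers had a symbol.

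Counts were fitted with edgeR 4.0.16 in R 4.3.3: TMM scaling, filterByExpr (minimum count 10), 1 mean per population over 12 libraries, quasi-likelihood F tests and Benjamini-Hochberg adjustment. The biological coefficient of variation was 1.28, with 6 residual degrees of freedom. Alternatives used DESeq2 1.42.0, limma 3.58.1 on log2(signal + 1), other scalings, no filter, a replicate block and libraries left out. The method was also run on simulated data, and the outcome is not given here. Named genes are Ly6d, Ly6a, the marker genes, every called gene with a symbol other than a predicted name, the called members of each list with up to 4 others by p-value (by mean CPM for other cell types), and the 6 smallest p-values of each interaction. Other members named in the text were chosen after their values were seen. The comparison, markers and lists were chosen with earlier results of these data known. The promoter motifs were searched on both strands, and their patterns were settled after matches had been seen.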

Additional observations from a re-analysis of the deposited data

Results flagged for a closer look

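The LY6D effect at SCA1high differed from that at another SCA1 level in 10 tests of the difference itself, covering 8 genes (edgeR quasi-likelihood test, Benjamini-Hochberg adjustment). Against SCA1Int the differences on the log2 scale were 3.52 for Defb50 (adjusted p = 1.7e-06), 2.15 for Mt2 (adjusted p = 0.00569), 6.12 for Ackr4 (adjusted p = 0.0125) and 2.52 for Spink1 (adjusted p = 0.0127). Against SCA1low they were -2.48 for Nfkbia (adjusted p = 0.0131), 1.97 for Mt2 (adjusted p = 0.0235), -3.61 for Tgm2, 1.88 for Defb50 and -2.31 for Ier3 (each adjusted p = 0.0284) and -3.58 for Dusp6 (adjusted p = 0.039).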

How the results depend on the processing

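All 40 called genes kept their sign in all 15 alternatives, and 6 kept their call in all of them, with Ackr4, Mt2, Sfn, Krt15 and Rnd1 as the named ones. For LY6D+ against LY6D- at SCA1high, the count of 40 became 94 with no filter on low counts, 1410 in DESeq2 (360 higher and 1050 lower, 31 of the 40 among them), 11 in limma, 128 without LY6D-SCA1low replicate 2 and 84 (23 higher and 61 lower) with the 4 SCA1high libraries alone. Leaving out 1 of the 4 libraries gave 50 to 79. Chosen after seeing the data, the subtraction of counts that libraries may share gave 19, and leaving out LY6D+SCA1high replicate 2 with LY6D-SCA1low replicate 2 gave 87. The median over all genes moved from -0.11 to -0.191 with DESeq2's size factors, to -0.227 with library size alone and to -1.55 without LY6D+SCA1high replicate 1.

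The 4 calls for LY6D effect at SCA1high minus LY6D effect at SCA1Int became 15 with no filter, 718 in DESeq2, 1 in limma, 6 to 26 with 1 library left out, 11 under the subtraction and 25 without both libraries. The 6 calls for LY6D effect at SCA1high minus LY6D effect at SCA1low became 2 with DESeq2's size factors, 17 with no filter, 669 in DESeq2, 0 in limma (768 at an unadjusted p below 0.05), 9 to 32 with 1 library left out, 15 under the subtraction and 22 without both libraries. Svs4 (Svs4: LY6D+ against LY6D- at SCA1high), a seminal vesicle gene, had a log2 fold change of 0.05, which ranged from -2.60 (without LY6D+SCA1high replicate 2) to 1.17 with 1 library left out and was -2.30 without both libraries. Of the 4 SCA1Int calls, those of Mt2 and Spink1 were lost in DESeq2. Of the 6 SCA1low calls, those of Nfkbia, Mt2, Defb50, Ier3 and Dusp6 were lost in DESeq2. The cause of these changes was not tested.

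With the replicate number as a block the counts were 65 (28 higher and 37 lower), 5 and 8. The sample descriptions carry 1 prefix for all replicates 1 and another for all replicates 2, and what it marks is not stated. Same-numbered libraries did not deviate together in most pairs of populations (15 pairs, correlations from -0.197 to 0.132, 2 above 0.1). The numbers were therefore not taken as pairing the samples in the main fit. With 2 libraries per population, these correlations cannot decide whether they do. With the block, Kdr, Mt1, Irf1, Aldh1a1, Flt1 and Selp were called.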

Other observations

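The predicted gene 9530053A07Rik had the smallest p-value of the comparison (108 and 60.9 against 514 and 651 CPM, log2 fold change -2.79 ± 0.28, edgeR adjusted p = 1.38e-06). Gm24447 and Gm26315, called lower, had nearly equal CPM in every library (54.4 and 156 against 376 and 624), and their reads cannot be told apart here.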
